A study of Mus musculus with 28 samples.

Results

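Kidney endothelial cells were compared after ischemic acute kidney injury (AKI) between mice that had been given a scrambled miRNA and mice left without treatment, all of them FVB males. The comparison holds 6 of the 28 samples of the series, 3 libraries in each group, chosen by their titles, and every gene of the table that the authors deposited for it. Scrambled miRNA is the control for a miR-486-5p mimic, and the same series also holds injured mice given exosomes or that mimic, and sham mice. Endothelial cells were taken from digested kidneys with microbeads that bind CD31, and tubular cells by microdissection. The notes on RNA extraction name 3 mice for a group, and 1 library was read as 1 animal. The exosome group has 3 endothelial libraries and the mimic group 2. Per the labels, the untreated libraries are a re-analysis of libraries from an earlier deposit, while the scrambled-miRNA libraries are new. Treatment and deposit cannot be told apart in any value below that sets untreated libraries against treated ones. The exosome and mimic libraries are of the same deposit as the scrambled-miRNA ones, and levels of these groups are set side by side without a test. The labels name neither dose nor route of the scrambled miRNA, nor the hours between injury and harvest.

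Peritubular and glomerular endothelial cells line the vessels of the kidney and are damaged early in ischemia, when they display adhesion molecules and lose barrier function. A scrambled miRNA has no intended target, but short RNAs delivered to an animal can be sensed by Toll-like receptors and cytosolic RNA sensors that switch on interferon and NF-kB genes. Macrophages gather around injured tubules, and tubule cells lose transport and gluconeogenic enzymes while they turn on injury genes such as Havcr1 and Lcn2.

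The 3 scrambled-miRNA libraries held 8.27 to 11.8 M estimated reads (M, 1000000 reads), and the exosome and mimic libraries used beside them held 12.1 to 24.1 M. Levels are given below as RPM, the estimated reads of a gene per 1000000 estimated reads of a library, which compares 1 gene between libraries, or as TPM, which is also scaled by transcript length. Per-library levels of the untreated libraries are not analysed here, and they enter only through the authors' deposited table. Its log2 folds are untreated over scrambled miRNA, so a negative fold means a higher level with scrambled miRNA. Base means were equal for 100% of genes in the endothelial tables against scrambled miRNA, exosomes, mimic and sham. Mitochondrially encoded genes took 9.08% to 14.3% of reads in scrambled-miRNA libraries and 14.6% to 23.8% in exosome and mimic libraries.

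The CD31 label was checked against marker genes. Pecam1, which encodes CD31 itself, had 232, 369 and 250.4 RPM in the scrambled-miRNA endothelial libraries, against 20.5 to 29.8 in the tubular libraries of mice given scrambled miRNA. Summed TPM of 23 endothelial genes was 734 to 1357 in the scrambled-miRNA endothelial libraries and 46.7 to 96.4 in the tubular ones. Other cells were present too. Umod, a marker of the thick ascending limb, stood at 3505 to 7737 TPM in the scrambled-miRNA endothelial libraries, and 23 proximal tubule genes summed to 5643 to 11625 TPM. In bulk samples such as these, a larger share of another cell type and more RNA per cell cannot be told apart. Xist, expressed from the inactive X chromosome of females, was at 0 to 0.363 RPM, and the Y-linked Ddx3y at 51.0 to 63.5, in the scrambled-miRNA libraries.

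Few genes separated the groups. The authors' deposited table lists 25412 genes and gives an adjusted p to 20333 of them, and 154 were called at an adjusted p under 0.05, which is 0.757%. Of these, 84 were higher with scrambled miRNA (0.413%) and 70 were lower with scrambled miRNA (0.344%). The median fold of all tested genes in the authors' deposited table was 0.0034, and 2815 listed genes had an unadjusted p under 0.05. Against the same untreated libraries, 675 genes were called with exosomes (3.77%, with 1.95% higher and 1.83% lower with exosomes) in the authors' deposited tables. The mimic gave 2032 (10.2%, with 3.78% higher and 6.46% lower with the mimic). Untreated injury against sham gave 853 (4.41%, with 3.3% higher and 1.11% lower in untreated injury).

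**Figure D1:**
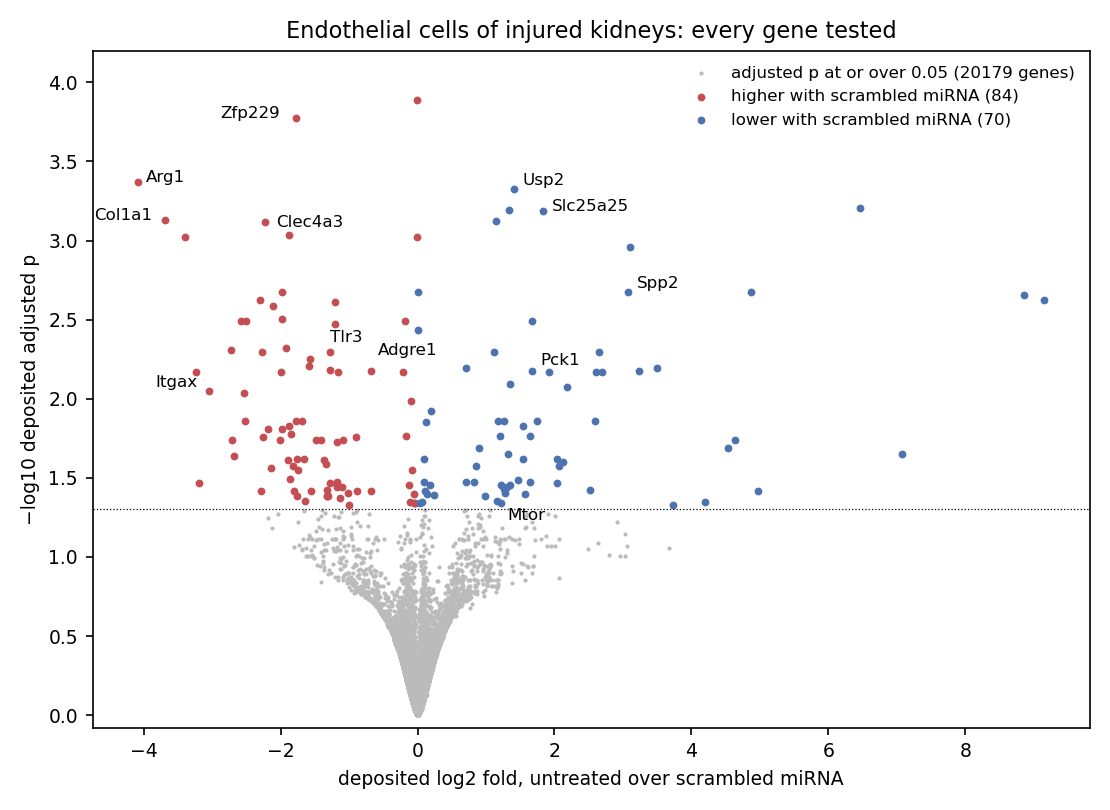
Each point is 1 of the 20333 genes tested, placed by the authors' deposited log2 fold of untreated over scrambled miRNA (x) and by the negative log10 of its adjusted p (y), with a dotted line at an adjusted p of 0.05. The 84 red genes on the left were higher and the 70 blue genes on the right were lower with scrambled miRNA, some called genes of both colours sit close to a fold of 0, and 1 gene lies above the top of the axis at 4.2.

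The genes lower with scrambled miRNA included enzymes and carriers of energy and organic ion metabolism. Pck1 encodes the cytosolic phosphoenolpyruvate carboxykinase, which commits carbon to gluconeogenesis and is abundant in the proximal tubule. It had 811, 692 and 956 RPM in the scrambled-miRNA libraries. The exosome libraries had 770, 270 and 272, and the mimic libraries 137 and 113. Scrambled-miRNA libraries thus lay close together, and 1 exosome library reached their range. The authors' deposited table gives Pck1 a fold of 1.68 (SE 0.47, adjusted p = 0.0067), and the folds of untreated over exosomes and over mimic in the authors' deposited tables are 2.46 and 4.45. Slc25a25, a carrier that exchanges ATP-Mg for phosphate across the inner mitochondrial membrane, had 48.1, 47.0 and 76.1 RPM with scrambled miRNA, 35.9 to 45.4 with exosomes, and 37.0 and 30.7 with the mimic. All 3 scrambled-miRNA libraries were above every exosome and mimic library. Its fold in the authors' deposited table was 1.83 (SE 0.40, adjusted p = 0.000652), so untreated libraries were higher still.

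Promoters of these 2 genes are shown, the only named genes with the cAMP response element in a window searched. Pck1 is a textbook target of cAMP signalling through this element, and a part of that signalling in the calls was not tested. The windows run from 250 bases before to 50 bases after a RefSeq start site (GRCm38.p6), with the element in capitals. Its consensus TGACGTCA and the form TTACGTCA, which share their last letters, were searched on both strands, and 1.79% of the 32851 mouse promoters listed hold the first and 0.499% the second. The Pck1 window lies at chr2:173152823-173153122 on the + strand, with TTACGTCA at offset -93 from the start site. The Slc25a25 window lies at chr2:32424017-32424316 on the - strand, with TGACGTCA at offset -150, and the windows of the other two RefSeq start sites of the gene held neither form. Of 52 named genes, 36 have a RefSeq promoter entry, and only these 2 of them held either form. E-box, PU.1 and STAT motifs were also searched, and their windows are not shown. The E-box, held by 7.15% of the listed promoters, matched Slc25a33, Bnip3 and Ip6k1, also called lower with scrambled miRNA. It matched Per1 too, which was not called. STAT, held by 8.30% of the promoters, matched Mtor and Zfp93, called lower, and Dbp, Icam1 and Per1, not called. A match describes letters only, and no binding was measured.
Pck1: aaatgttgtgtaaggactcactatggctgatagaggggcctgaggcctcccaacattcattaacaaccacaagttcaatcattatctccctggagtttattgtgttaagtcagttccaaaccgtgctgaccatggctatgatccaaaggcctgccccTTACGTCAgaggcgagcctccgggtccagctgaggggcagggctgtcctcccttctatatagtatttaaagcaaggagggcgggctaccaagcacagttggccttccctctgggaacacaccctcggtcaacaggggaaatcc
Slc25a25: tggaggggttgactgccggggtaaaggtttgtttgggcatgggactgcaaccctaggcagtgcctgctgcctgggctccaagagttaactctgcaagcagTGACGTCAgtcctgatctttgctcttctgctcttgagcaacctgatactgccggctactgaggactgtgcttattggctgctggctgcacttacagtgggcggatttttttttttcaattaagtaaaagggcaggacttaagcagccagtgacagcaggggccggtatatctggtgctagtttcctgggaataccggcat

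Spp2, which encodes a secreted phosphoprotein, had the largest positive fold among called genes with a base mean of at least 100. It had 5.29, 2.54 and 3.06 RPM in the scrambled-miRNA libraries, and 3.38 to 27.3 in the exosome libraries. The tubular scrambled-miRNA libraries had 50.1 to 167. Its fold in the authors' deposited table was 3.08 (SE 0.76, adjusted p = 0.00211). Inmt, a methyltransferase of small amines, was even across scrambled-miRNA libraries at 16.6, 13.9 and 15.5 RPM. The exosome libraries had 66.5, 25.1 and 25.4, the mimic libraries 19.5 and 22.0, and no library of either group was as low as the scrambled-miRNA ones. The authors' deposited table gives Inmt a fold of 2.13 (SE 0.73, adjusted p = 0.025). Slc22a7, an organic anion transporter, gave 2.69 in the authors' deposited table (adjusted p = 0.00675), with 0.121 to 1.62 RPM in scrambled-miRNA libraries. The predicted genes Gm6300 (2.65) and BC024386 (2.60) were also lower with scrambled miRNA by the authors' deposited table.

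Inmt, Spp2, Pck1 and Slc25a25 each had a higher RPM in every tubular than in every endothelial library of scrambled-miRNA mice, for Inmt at 67.3 to 134, so values of proximal tubule markers are given beside them. Of 23 proximal tubule genes tested, 1 was called, Pck1, beside 0.344% of all genes called in that direction. The median fold of the list in the authors' deposited table was 0.16, with 22 of 23 folds positive, where 52.0% of all tested genes had a positive fold. At an unadjusted p under 0.05, 11 of 23 were lower with scrambled miRNA, beside 7.11% of all tested genes. Slc34a1, the phosphate transporter of the proximal tubule, was not called (fold 0.19, SE 0.33, adjusted p = 0.291, in the authors' deposited table), nor was Miox at 1.304 (adjusted p = 0.094). The list summed to 11625, 5643 and 6244 TPM in scrambled-miRNA libraries, 19307, 3296 and 2286 in exosome libraries, and 2855 and 2489 in mimic libraries. The first exosome library was above every scrambled-miRNA library and the other 2 were below them all. The part of tubule RNA in the calls above was not tested.

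Usp2 and Ip6k1 were among the 10 smallest adjusted p-values. Usp2, a deubiquitinase, had 39.2, 52.6 and 41.5 RPM with scrambled miRNA, 109, 65.6 and 100.4 with exosomes, and 97.2 and 106 with the mimic. Every scrambled-miRNA library was below every exosome and mimic library. The fold was 1.41 in the authors' deposited table (SE 0.30, adjusted p = 0.000474), where untreated over exosomes gave -0.07 and untreated over mimic 0.05. Klf15, a transcription factor of amino acid and glucose metabolism, followed the same order, and it was picked after its values were seen. It had 20.3, 14.4 and 22.9 RPM with scrambled miRNA against 28.5 to 55.4 with exosomes, and its fold in the authors' deposited table was 1.33 (SE 0.44, adjusted p = 0.0225). Ip6k1, an inositol hexakisphosphate kinase, depended on the scale. It had 70.0 to 81.6 RPM with scrambled miRNA and 64.3 to 98.2 with exosomes, which overlap. In TPM it had 15.1, 9.30 and 51.8 against 68.0 to 107, which do not. The authors' deposited table gives Ip6k1 1.34 (SE 0.29, adjusted p = 0.000644).

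Mtor, Bnip3 and Herpud1 were also called lower with scrambled miRNA. Mtor, the kinase of the TORC1 and TORC2 complexes, had 153, 93.5 and 99.5 RPM with scrambled miRNA, and its fold in the authors' deposited table was 1.15 (SE 0.43, adjusted p = 0.0443, or 0.055 when adjusted over every gene with a p-value). Bnip3, a mitophagy receptor induced by hypoxia, gave 1.17 in the authors' deposited table (adjusted p = 0.0138) at 96.9 to 110 RPM. Herpud1, part of the degradation machinery of the endoplasmic reticulum, gave 1.64 (adjusted p = 0.0172), and it had 126 to 155 RPM with scrambled miRNA against 206 to 262 with exosomes. Slc25a33, a mitochondrial pyrimidine nucleotide carrier, gave 2.07, and Cdr2 2.04, by the authors' deposited table. Among genes picked after their values were seen, the malate dehydrogenase Mdh1 (0.90) and the fatty acid regulator Ppara (1.46) were also lower with scrambled miRNA in the authors' deposited table. As a group, 90 respiratory chain genes had 0 calls with a median of 0.22 in the authors' deposited table, beside 0.344% of all genes called in that direction. At an unadjusted p under 0.05, 29 of the 90 were lower with scrambled miRNA, beside 7.11% of all tested genes.

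Among the genes higher with scrambled miRNA were Arg1, F13a1, Ccl7, Clec4a3, Clec7a, Itgax and Adgre1, which myeloid cells express. Arg1, the arginase of alternatively activated macrophages, had 25.1, 4.59 and 5.53 RPM with scrambled miRNA, 0.442 to 1.32 with exosomes, and 0.141 and 0.207 with the mimic. The groups did not overlap, and the first scrambled-miRNA library was the highest. Its fold in the authors' deposited table was -4.08 (SE 0.87, adjusted p = 0.000426). F13a1, the A chain of coagulation factor XIII, made by macrophages and platelets, had 30.2, 18.7 and 12.1 against 2.31 to 3.31 RPM with exosomes. It gave -1.68 in the authors' deposited table (SE 0.52, adjusted p = 0.0138), and untreated over sham gave 3.60. Both genes were picked after their values were seen, since Arg1 has a base mean under 100 and F13a1 is outside the naming rule. Of 21 tested NF-kB and cytokine genes 1 was called, the monocyte chemokine Ccl7, beside 0.413% of all genes called in that direction. Ccl7 had 10.6, 6.77 and 3.32 RPM with scrambled miRNA, and 1.80 to 2.50 with exosomes. The scrambled-miRNA libraries were all above the exosome ones. Its fold was -2.68 in the authors' deposited table (SE 0.92, adjusted p = 0.0231), beside 4.05 for untreated over sham.

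Lectins and integrins of myeloid cells followed another pattern. Clec4a3, a C-type lectin receptor, had 9.61, 8.22 and 8.08 RPM with scrambled miRNA, 6.18 to 10.4 with exosomes, and 1.76 and 7.92 with the mimic. Levels therefore overlapped among the treated groups. The folds of Clec4a3 in the authors' deposited tables were -2.22 (SE 0.50, adjusted p = 0.000768) against scrambled miRNA, -2.80 against exosomes and -1.99 against the mimic, and all 3 were called. Clec7a, which encodes the beta-glucan receptor Dectin-1, gave -2.28 against scrambled miRNA (adjusted p = 0.00503), -2.12 against exosomes and -1.17 against the mimic (adjusted p = 0.0731, not called) in the authors' deposited tables. Itgax, the integrin CD11c of dendritic cells, had 8.82, 10.1 and 7.64 RPM with scrambled miRNA and 6.31 to 10.4 with exosomes. The authors' deposited tables give Itgax -3.04 against scrambled miRNA (SE 0.91, adjusted p = 0.0089), -0.39 against exosomes and -3.13 against the mimic. Adgre1, the macrophage antigen F4/80, was called with a fold of -0.21 (SE 0.42, adjusted p = 0.00675) in the authors' deposited table. It was also called against exosomes (-2.28, adjusted p = 0.0343) and the mimic (-2.57, adjusted p = 0.0189). Its levels overlapped, at 14.3, 18.0 and 12.5 RPM with scrambled miRNA, 8.87 to 13.6 with exosomes, and 6.19 and 17.3 with the mimic. The deposited folds appear shrunken, so -0.21 need not mean a smaller difference.

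Values of the macrophage list are given beside these calls. Of its 16 tested genes, 1 was called, Adgre1, beside 0.413% of all genes in that direction, and 13 of 16 had an unadjusted p under 0.05 and were higher with scrambled miRNA, beside 6.21% of all tested genes. The median fold of the list was -0.15 in the authors' deposited table, and 15 of 16 folds were negative. Lyz2 (-1.60), Cd74 (-1.31) and Csf1r (-0.97) did not pass the adjusted threshold in the authors' deposited table. Spp1 made up most of the list's summed TPM and is also a gene of the injured tubule. Without it the other 15 genes summed to 401, 465 and 266 TPM with scrambled miRNA, 199 to 239 with exosomes, and 201 and 410 with the mimic, and none of them was at 0 in all scrambled-miRNA libraries. Of 9 neutrophil genes tested, 0 were called in the authors' deposited table, beside 0.757% of all tested genes. At an unadjusted p under 0.05, 1 was lower with scrambled miRNA, beside 7.11% of all tested genes. The 10 listed neutrophil genes summed to 38.7 to 65.0 TPM with scrambled miRNA and 9.96 to 16.7 with exosomes, and 1 was at 0 in all scrambled-miRNA libraries. The 9 platelet genes summed to 85.7, 35.0 and 23.0 TPM with scrambled miRNA and to 7.86 to 11.5 with exosomes, and 3 of 8 tested had an unadjusted p under 0.05 and were higher with scrambled miRNA. The part of macrophage and platelet RNA in the calls was not tested.

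Col1a1 and Col3a1 were called higher with scrambled miRNA. Col1a1, a chain of type I collagen, had 4.97, 1.33 and 3.23 RPM with scrambled miRNA, 0.589 to 1.07 with exosomes, and 0.773 and 0.663 with the mimic. All scrambled-miRNA libraries were above the others, on 46.0, 11.0 and 38.0 estimated reads. Its fold in the authors' deposited table was -3.69 (SE 0.84, adjusted p = 0.000743). Col3a1 had 6.16, 2.66 and 2.13 against 0.314 to 0.958 RPM with exosomes, and was called with a fold of -0.17 (adjusted p = 0.0172) in the authors' deposited table. These were the 2 called members of 22 matrix genes, beside 0.413% of all genes called in that direction, and also the 2 called members of 14 fibroblast and mural cell genes. At an unadjusted p under 0.05, 9 of the 22 were higher with scrambled miRNA, beside 6.21% of all tested genes. The matrix list had a median of -0.15 in the authors' deposited table. The fibroblast list summed to 106 to 170 TPM with scrambled miRNA, 115 to 151 with exosomes, and 186 and 258 with the mimic.

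**Figure D2:**
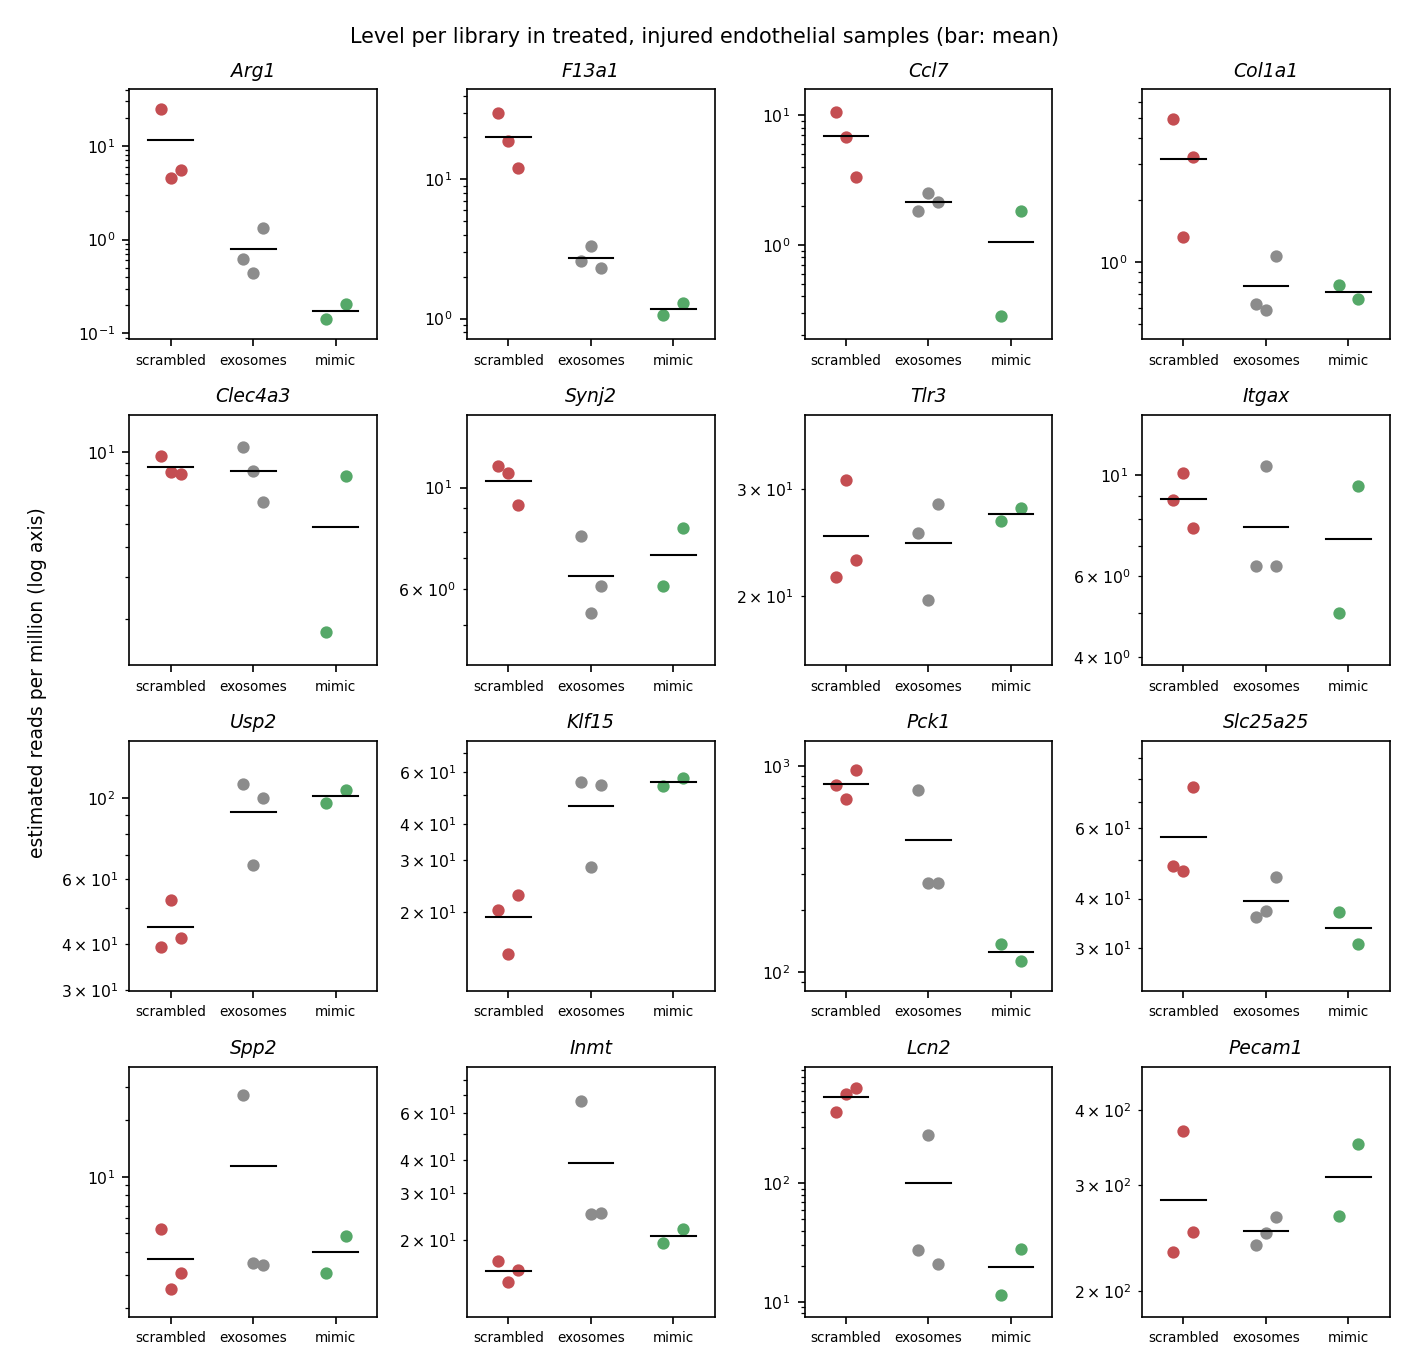
RPM (log axis) of 16 genes in each endothelial library of injured mice given scrambled miRNA (red, 3), exosomes (grey, 3) or the mimic (green, 2), with bars at the means. Arg1, F13a1 and Col1a1 are higher and Usp2 is lower in all 3 scrambled-miRNA libraries than in every other library shown, whereas Clec4a3, Tlr3, Itgax and Pecam1 overlap.

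Genes of endothelial identity were not called. Of 23 tested, 0 passed the DESeq2 adjustment in the authors' deposited table and 6 were higher with scrambled miRNA at an unadjusted p under 0.05, beside 0.413% and 6.21% of all tested genes. Their median fold was -0.11 in the authors' deposited table, and 1 of 23 folds was positive, where 52.0% of all tested genes had a positive fold. Pecam1 gave -0.18 (SE 0.27, adjusted p = 0.49), Cdh5, the cadherin of endothelial junctions, -0.04 (SE 0.21, adjusted p = 0.878), and Tek, the angiopoietin receptor, -1.001 (adjusted p = 0.14) in the authors' deposited table. Cyp26b1, which degrades retinoic acid, had 85.1, 192 and 91.2 RPM with scrambled miRNA, 42.8 to 47.5 with exosomes, and 131 and 63.1 with the mimic. It lay above the exosome libraries in all 3 and was nearly silent in tubular libraries at 0.583 to 4.78. The authors' deposited table gives Cyp26b1 -2.11 (SE 0.53, adjusted p = 0.0026). Other genes, outside the endothelial identity list and picked after their values were seen, were also higher with scrambled miRNA in the authors' deposited table. They were the sialomucin Cd34 (-1.30, adjusted p = 0.0414), coagulation factor F8 (-1.59, adjusted p = 0.00617), the guanylate cyclase subunit Gucy1a1 (-1.18, adjusted p = 0.0353) and the lymphangiogenic factor Vegfd (-1.18, adjusted p = 0.0189). Cd34 was also called against the mimic (-1.17, adjusted p = 0.0343) in the authors' deposited tables, and F8, Gucy1a1 and Vegfd were not. F8 was even across scrambled-miRNA libraries at 37.8, 43.9 and 40.2 RPM, within the reach of the mimic libraries at 32.1 and 47.0.

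Adhesion molecules of activated endothelium did not pass. Of 17 tested genes of endothelial activation, 0 were called and 4 were higher with scrambled miRNA at an unadjusted p under 0.05, beside 0.413% and 6.21% of all tested genes. The median of the list was -0.04 in the authors' deposited table. Vcam1 had 146, 54.9 and 41.5 RPM with scrambled miRNA and a fold of -0.14 (SE 0.27, adjusted p = 0.415) in the authors' deposited table. Icam1 had 114, 63.6 and 74.1 RPM, and its fold was 0.16 (SE 0.27, adjusted p = 0.501) in the authors' deposited table. The first scrambled-miRNA library was the highest for both.

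The lists of nucleic acid sensing and interferon response held 1 call. Tlr3, the endosomal receptor of double-stranded RNA, was the called member of 20 tested genes of nucleic acid sensing, beside 0.413% of all genes called in that direction. It had 21.5, 31.1 and 23.0 RPM with scrambled miRNA, 19.7 to 28.3 with exosomes, and 26.6 and 28.0 with the mimic, so the treated groups overlapped. The folds of Tlr3 in the authors' deposited tables were -0.68 (SE 0.18, adjusted p = 0.0067) against scrambled miRNA, -0.71 against exosomes and -0.82 against the mimic. The sensing list had a median of -0.09 in the authors' deposited table, and 5 of 20 were higher with scrambled miRNA at an unadjusted p under 0.05, beside 6.21% of all tested genes. Of 24 interferon response genes, 0 were called and 4 were higher with scrambled miRNA at an unadjusted p under 0.05, beside 0.413% and 6.21% of all tested genes. The median of these 24 was -0.07. Negative folds numbered 20 of 24 in the interferon list and 15 of 20 in the sensing list. Of all tested genes, 52.0% had a positive fold. Oas1a (-1.30, adjusted p = 0.121) and Ifi27 (-0.58, adjusted p = 0.0787) were among those that did not pass in the authors' deposited table. Trim14, an adaptor of antiviral signalling outside the lists, was called at -1.88 (SE 0.43, adjusted p = 0.000925) against scrambled miRNA, -2.25 against exosomes and -2.46 against the mimic in the authors' deposited tables, on 22.0, 65.0 and 35.0 estimated reads with scrambled miRNA.

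**Figure D3:**
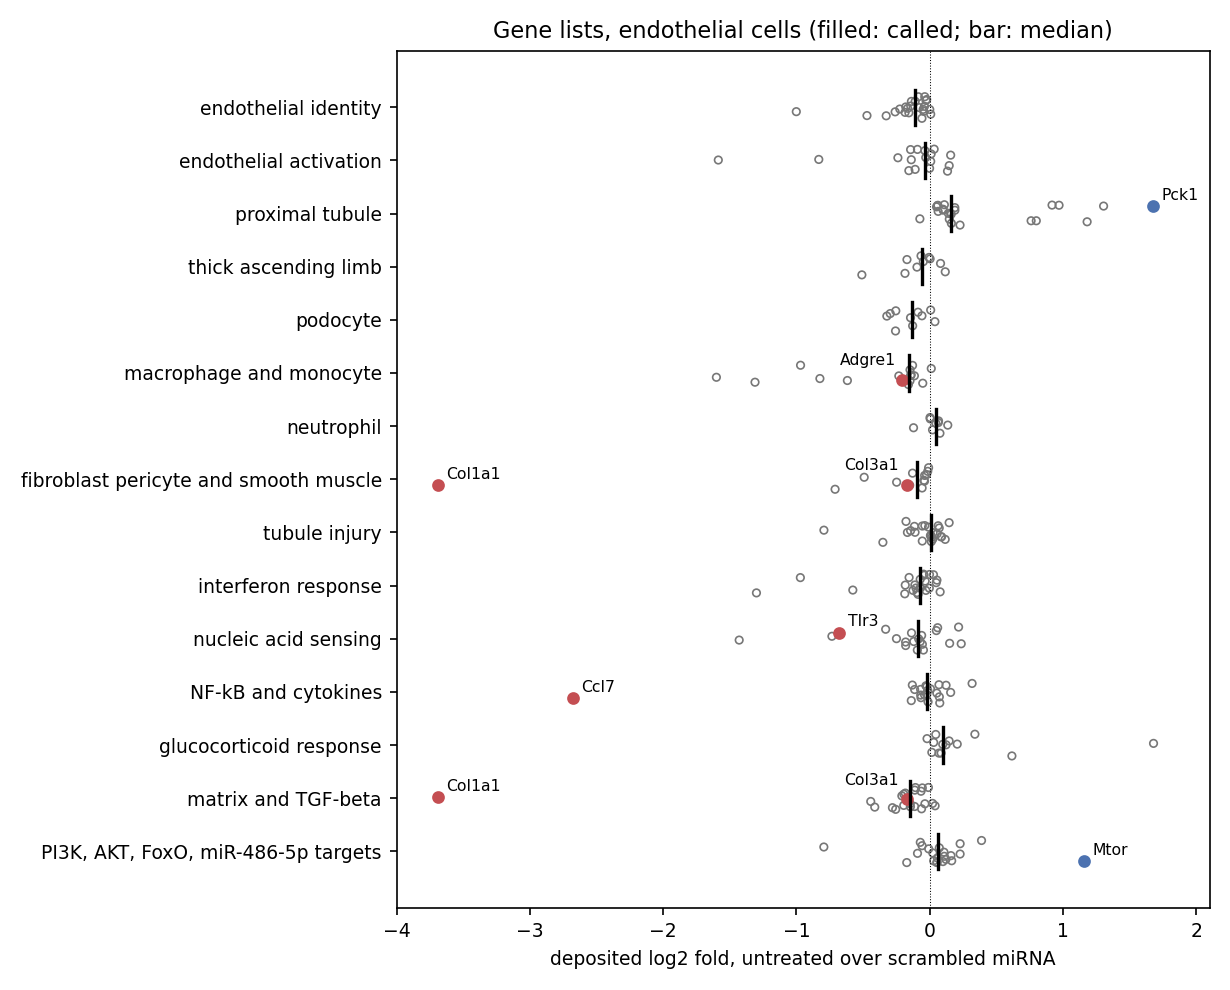
Each point is a tested member of 15 gene lists, placed by the authors' deposited log2 fold of untreated over scrambled miRNA. Filled points are called (red higher and blue lower with scrambled miRNA) and are named, open points are not called, and the black bars are list medians, which lie between -0.15 and 0.16.

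Tubule injury genes did not pass the test between scrambled-miRNA and untreated mice. Of 24 tested, 0 were called, beside 0.413% of all tested genes called higher and 0.344% called lower with scrambled miRNA. At an unadjusted p under 0.05, 3 were higher and 1 was lower with scrambled miRNA, beside 6.21% and 7.11% of all tested genes. The median was 0.01 in the authors' deposited table. Against sham, 18 of the 24 were called higher in untreated injury, beside 3.3% of all tested genes, with a median of 2.22 in the authors' deposited table. Lcn2, which encodes the injury marker NGAL, had 398, 564 and 635 RPM with scrambled miRNA, 27.5, 254 and 20.8 with exosomes, and 11.5 and 28.2 with the mimic. Its folds in the authors' deposited tables were 0.01 (SE 0.21, adjusted p = 0.983) against scrambled miRNA, 1.73 (adjusted p = 0.0471) against exosomes, 4.51 (adjusted p = 2.76e-06) against the mimic and 7.20 against sham. Havcr1, the gene of KIM-1, varied more between scrambled-miRNA libraries, at 619, 80.5 and 219 RPM. Its fold was -0.01 (SE 0.22, adjusted p = 0.93) in the authors' deposited table, beside 4.86 for untreated over sham. A p that misses the threshold does not show that the groups were alike. These folds are small beside their standard errors, but the deposited folds appear shrunken. The called gene Col3a1 also has a fold (-0.17) smaller than its standard error (0.34), so the sizes of these folds do not settle it.

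**Figure D4:**
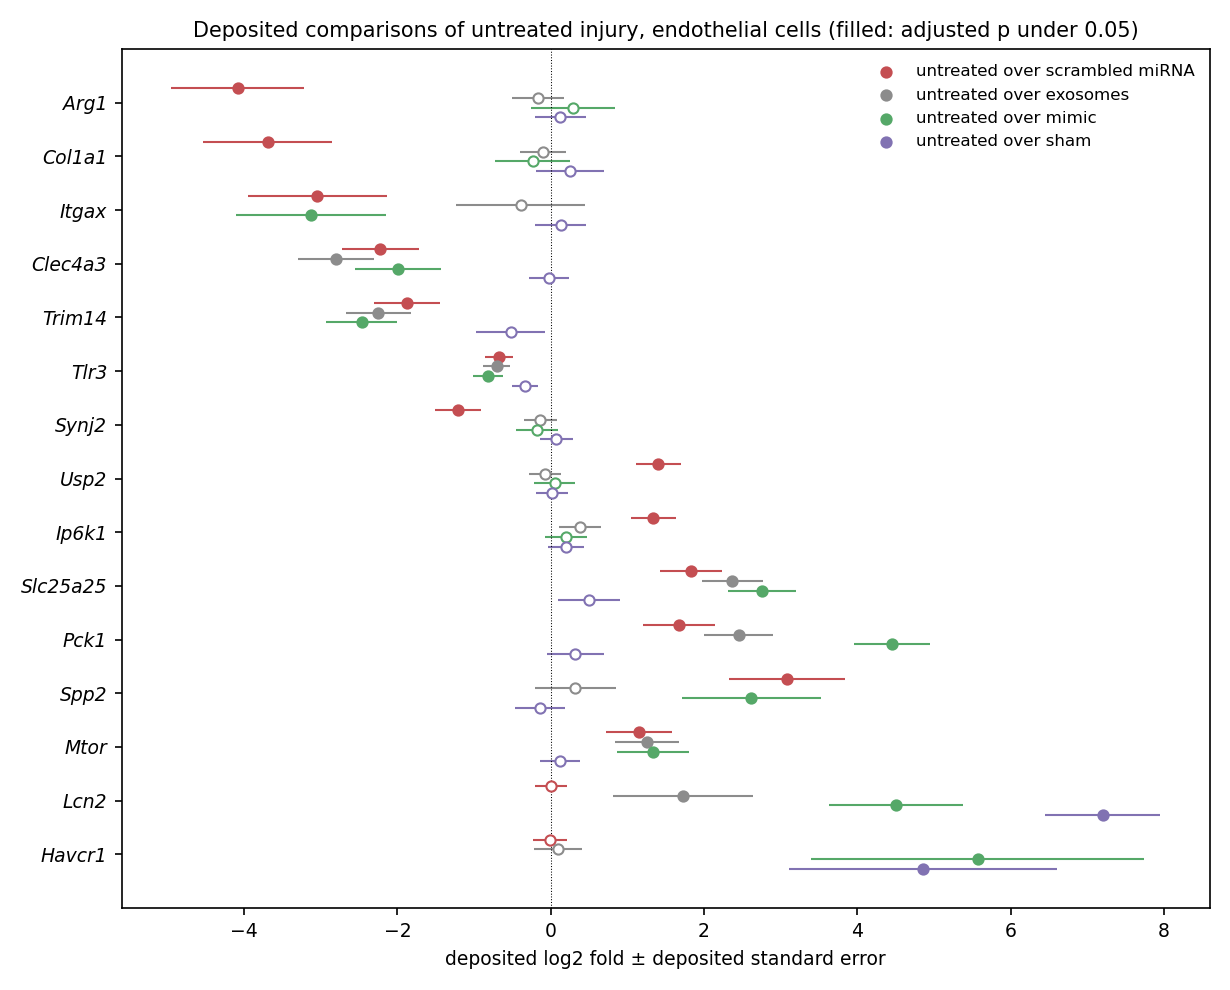
The authors' deposited log2 folds with their standard errors for 15 genes in endothelial cells, untreated over scrambled miRNA (red), exosomes (grey), mimic (green) and sham (purple), with filled points at an adjusted p under 0.05. All 4 comparisons share the untreated libraries. Arg1, Col1a1, Synj2, Usp2 and Ip6k1 are called against scrambled miRNA and not in the other three, whereas Clec4a3, Trim14, Tlr3, Slc25a25, Pck1 and Mtor are called against all 3 treatments.

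Reported targets of miR-486-5p and the PI3K pathway gave 1 call of 22, Mtor, beside 0.344% of all genes called in that direction. Their median was 0.06, with 2 lower and 1 higher with scrambled miRNA at an unadjusted p under 0.05, beside 7.11% and 6.21% of all tested genes. Foxo1, a transcription factor restrained by AKT, had 57.5, 51.6 and 52.2 RPM with scrambled miRNA and a fold of 0.11 (SE 0.20, adjusted p = 0.732) in the authors' deposited table. Dbp, a transcription factor of the circadian clock, varied 2.81-fold between scrambled-miRNA libraries, at 118, 41.9 and 62.4 RPM, and gave 0.00 (adjusted p = 0.998) in the authors' deposited table, and Per1, a clock repressor, gave 0.10 (adjusted p = 0.524). Among 13 glucocorticoid response genes 0 were called and 5 were lower with scrambled miRNA at an unadjusted p under 0.05, beside 0.344% and 7.11% of all tested genes. Over all 32 lists, 10 of 634 tested members were called, beside 0.757% of all tested genes, and 22 lists had none.

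Of the remaining named calls, Synj2, an inositol phosphatase of vesicle traffic, had 11.1, 10.8 and 9.18 RPM with scrambled miRNA against 5.30 to 7.85 with exosomes. It gave -1.21 (SE 0.30, adjusted p = 0.00243) in the authors' deposited table, and the libraries of the 2 groups did not overlap. Zfp229, a zinc finger gene, had the smallest adjusted p of the named genes (fold -1.78, SE 0.36, adjusted p = 0.000168, in the authors' deposited table), at 7.67, 7.95 and 6.46 RPM with scrambled miRNA and 4.52 to 7.38 with exosomes. Adgrl3, an adhesion receptor, gave -1.99 (SE 0.49) and the ubiquitin ligase gene Rnf157 -2.73 (SE 0.75) in the authors' deposited table.

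The levels of Abcb1a, the drug efflux pump P-glycoprotein, differed in order between the scales. It had 1.52, 1.06 and 22.2 TPM with scrambled miRNA, yet 13.5, 10.2 and 3.35 RPM, so the library highest in TPM was the lowest in reads. The authors' deposited table gives Abcb1a -2.72 (SE 0.90, adjusted p = 0.0182). Gm37494 (-2.25) was likewise highest in the third library in TPM, at 2.39, 0.755 and 8.84, and lowest there in RPM, at 13.3, 14.6 and 10.5. Hmgcll1, a relative of the HMG-CoA lyase, was highest there on both scales and gave -2.29 (SE 0.87, adjusted p = 0.0382) in the authors' deposited table. Rufy2 (-2.002 in the authors' deposited table) shares 2547 bases of its span with Hnrnph3 on the other strand, and Trim14 shares 9852 with Nans, Mtor 5278 with Angptl7 and Synj2 2095 with Serac1.

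Gm44588 lies within Umod on the opposite strand (chromosome 7, 119462821 to 119472478, GRCm38) and shares 9658 bases with it. Without strand, reads from these genes cannot be told apart. It had 101, 410 and 224 RPM with scrambled miRNA and a fold of -2.01 (adjusted p = 0.0182), while Umod gave -0.05 (adjusted p = 0.876) in the authors' deposited table. Gm20431 (2.18) spans the same strand as Ube2v1 and Tmem189 and had 32.7, 10.8 and 0 RPM, so its value is uncertain too. The fold of Zfp93 was 2.52 and that of Gm2225 2.04 in the authors' deposited table, and Gm2260 gave 1.14.

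Across the calls, folds near 0 and low counts were common. The authors' deposited table has 25 of 154 called genes with an absolute fold under 0.3 and 54 with a base mean under 100. Sv2c had the smallest adjusted p of the table (4.71e-14) with a fold of 0.03, and was listed at 0 in all scrambled-miRNA libraries. The largest positive fold of the authors' deposited table was 9.16 for the pseudogene Gm18588, also at 0 in all 3, and a fold against a group at 0 depends on the fit. Of the 70 genes lower with scrambled miRNA, 16 were at 0 in all 3 libraries. Zeros on this side of the comparison favour that direction, and zeros in untreated libraries or over all tested genes were not counted. Of the 84 higher genes, 1 was also at 0 in all 3, against the direction of its fold. Pseudogenes numbered 9 of the 70 lower and 2 of the 84 higher genes. Between scrambled-miRNA libraries, the highest exceeded the lowest by a median of 1.67-fold for genes higher and 1.62-fold for genes lower with scrambled miRNA, against 1.49-fold for all tested genes. Genes at 0 in any of the 3 libraries have no such ratio, which left 79 of the 84 higher and 43 of the 70 lower genes.

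The same comparison in tubular cells used other libraries but the same 2 deposits. There 3005 of 16874 genes were called (17.8%) in the authors' deposited table, 6.75% higher and 11.1% lower with scrambled miRNA. Of 16703 genes tested in both cell types, 132 were called in endothelial cells, 2947 in tubular cells and 23 in both. That is 17.4% of the endothelial calls and 0.780% of the tubular calls, and 17.6% of all 16703 genes were called in tubular cells. Of the 23, 15 were lower and 6 were higher with scrambled miRNA in both cell types, and 2 were opposite, Gm44588 and Zfp93. Itgax was -3.04 in endothelial and -2.44 in tubular cells, and H2-Eb1, a class II antigen presentation gene, -1.98 and -2.03, by the authors' deposited tables. Cdr2 was 2.04 and 2.41, Mtor 1.15 and 1.65, Herpud1 1.64 and 1.69, and G0s2, an inhibitor of fat breakdown, 1.93 and 1.85, endothelial before tubular. In endothelial cells, H2-Eb1, Cdr2, Mtor and G0s2 were also called against exosomes and against the mimic. Itgax was also called against the mimic only, and Herpud1 against neither. Folds correlated at r = 0.141 over the 16703 genes, which share the direction of the 2 deposits.

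**Figure D5:**
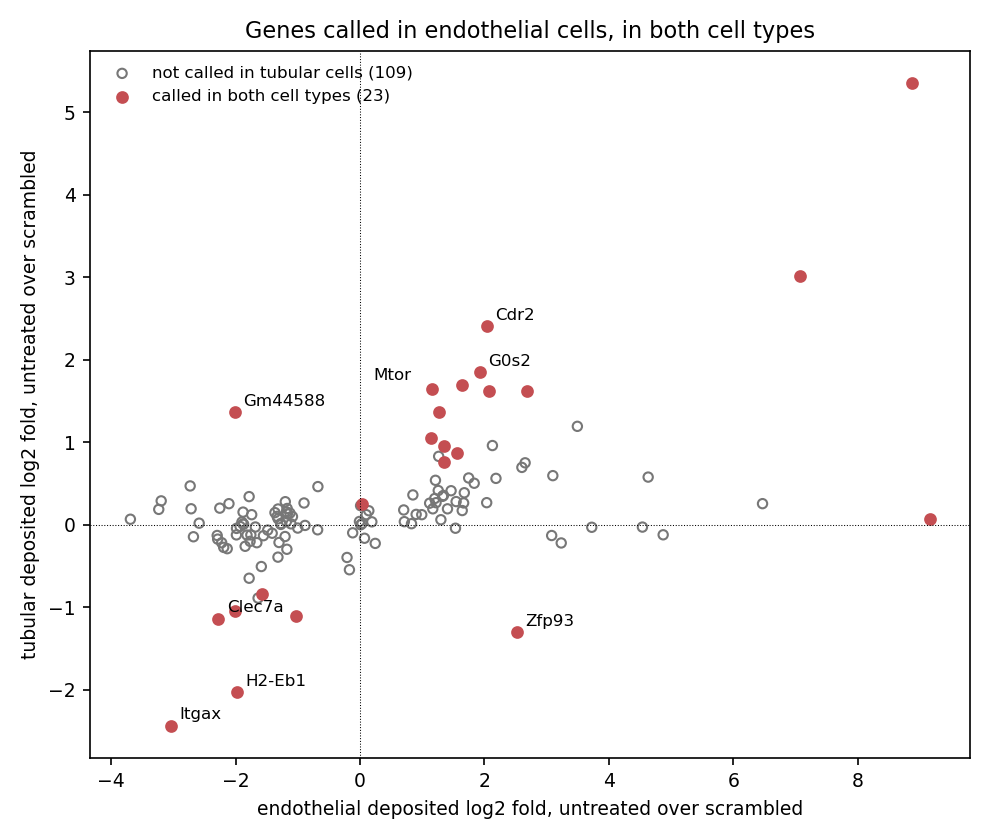
Genes called in endothelial cells and tested in both cell types, placed by the authors' deposited log2 fold of untreated over scrambled miRNA in endothelial (x) and tubular (y) cells. The 23 red genes were called in both, mostly with the same sign, and the 109 open circles lie mostly near 0 on the tubular axis.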

How the data were processed

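Poly(A) libraries were made with the NEBNext Ultra II kit, per the labels' protocols, which state no strand setting. The tools named by the submitters' processing notes are DESeq2 and Salmon 0.13.1, with build GRCm38. The per-library files deposited by the authors hold estimated counts and TPM for 136202 transcripts (99.0% in GENCODE M21), which were summed by gene. The authors' deposited comparison tables hold the base mean signal, log2 fold, standard error, p-value and adjusted p. Folds were used as deposited: they appear shrunken, with a median absolute fold over standard error of 0.200, against 0.805 as the z-score the p-values imply. Their sign was checked against own levels (differences between deposited folds against log2 ratios of mean TPM plus 0.1: r = 0.699 with exosomes and 0.832 with the mimic, over 13061 genes). A gene was called at an adjusted p under 0.05. No model was refitted, since untreated libraries were used only through the tables. Named genes had a base mean of at least 100 and were the 10 largest folds in each direction and the 10 smallest adjusted p-values, plus up to 4 called members of each list and a fixed set, others being named as picked. A few genes that the rule names are not reported here. Members, lists and rules were chosen with earlier results of these data known. Python 3.11.15, pandas 2.3.3, numpy 2.4.6 and scipy 1.17.1 were used. RPM are estimated counts divided by the library total. The deposited p-values set the difference between groups against the spread between libraries within groups, and do not separate treatment from deposit. Since base means were equal across the endothelial tables, that spread may also include libraries of the other groups. Estimated counts need not be whole, and no counting interval is given.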

Additional observations from a re-analysis of the deposited data

How the results depend on the processing

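The 154 calls became 56 at an adjusted p under 0.01 (31 higher and 25 lower with scrambled miRNA), 380 under 0.1 (194 higher and 186 lower), and 100 with a base mean of at least 100 (57 higher and 43 lower). Adjusting over every gene with a p-value gave 136, adjusting over genes with a base mean of at least 10 gave 177, and an absolute fold of at least 1 left 119, each within 1.5 times. Lists with a called member numbered 10, against 4 at 0.01 and 22 at 0.1. Tubular calls numbered 1307 at 0.01 and 1617 with an absolute fold of at least 1. Summed macrophage markers were 4.08 times higher in scrambled-miRNA than in exosome libraries by TPM, 3.05 times without mitochondrially encoded genes, 3.28 times by RPM, and 3.82 to 4.46 times when a scrambled-miRNA library was left out. Fibroblast markers gave 1.101 times, and 0.824 times without mitochondrially encoded genes. Proximal tubule markers ranged over 0.716 to 1.08, endothelial markers over 1.10 to 1.55 and fibroblast markers over 0.985 to 1.23 when a scrambled-miRNA library was left out. Further alternatives were chosen after seeing the data. With an exosome library left out, macrophage markers ranged over 3.14 to 9.19 times (9.19 without the second library), proximal tubule markers over 0.693 to 2.81, endothelial markers over 1.32 to 1.48 and fibroblast markers over 1.05 to 1.21. The proximal tubule ratio was 0.945 with every library and turned to 2.81 without the first exosome library. Without Spp1 the macrophage ratio was 1.71. Among named genes, 15 lost their call at 0.01, and Mtor also when adjusted over every gene with a p-value (0.055). No library could be left out of the deposited test. No paired analysis was possible because the untreated libraries enter through a comparison table that carries no per-library values. A mean under 1 TPM with scrambled miRNA was found for 21 of the genes higher and 29 of the genes lower with it. Such levels can rest on few reads, but TPM is scaled by transcript length. Abca9, at a mean of 0.632 TPM, had 70, 76 and 67 estimated reads.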
